A study of Mus musculus with 6 samples.

Results

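Plet1, Prap1, Sptssb and Apol10a are 4 protein-coding genes, of 24346 gene entries listed per library, that were picked from these libraries because their transcripts were abundant in the epithelium of the proximal colon of the mouse and nearly gone in the distal colon. Their rows were taken by gene symbol, and each symbol occurred once. Because the fall from proximal to distal colon chose them, every difference between regions is given for them as a description without a test. Only the comparison of the sexes, which the choice did not use, is tested.

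The study sequenced polyadenylated RNA from colon epithelial cells of untreated mice of the inbred strain C57BL/6J, with wild-type genotype. There were 6 libraries, 1 from males and 1 from females for each of the proximal, middle and distal colon, so that a region has n = 2 and the 3 libraries of a sex come from different regions. The labels state neither the age of the mice, nor how many entered a library, nor whether 1 mouse gave several regions. A p-value here therefore measures only the variation among the 6 libraries, part of which may be technical. Levels are in FPKM, fragments counted per gene and scaled to transcript length and library size, a unit that allows genes to be compared with each other. A fold within a sex rests on 1 library per region and has no replicate check.

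The colon is lined by a single layer of absorptive colonocytes, mucus-secreting goblet cells and rarer cell types that is renewed continuously from stem cells in the crypts. The proximal and distal ends of the colon have different embryonic origins and handle water, salts and lipids differently. Plet1 encodes a surface protein held in the membrane by a glycosylphosphatidylinositol (GPI) anchor and marks progenitor cells in several epithelia. Prap1 encodes a secreted, proline-rich acidic protein of gut epithelium that binds the microsomal triglyceride transfer protein, which loads lipid onto lipoproteins. Sptssb encodes a small subunit of serine palmitoyltransferase, the enzyme of the first step of sphingolipid synthesis. Apol10a belongs to the apolipoprotein L family of lipid-binding proteins.

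In the mm10 assembly with the GENCODE M21 annotation, Plet1 (ENSMUSG00000032068.14) lies on chromosome 9 from 50494525 to 50505482 on the plus strand. Prap1 (ENSMUSG00000025467.8) lies on chromosome 7 from 140093395 to 140097200 on the plus strand. Sptssb (ENSMUSG00000043461.13) lies on chromosome 3 from 69819542 to 69859940 on the minus strand, and Apol10a (ENSMUSG00000050982.13) on chromosome 15 from 77477047 to 77491069 on the plus strand. The 250 bases upstream of each RefSeq transcription start (GRCm38.p6) are printed here 5′ to 3′ on the gene's own strand. The 4 genes were picked for a shared fall from proximal to distal colon, and these windows let their start regions be compared. Capitals mark the letters TATAAA, the core of a TATA box. The windows are chr9:50494275-50494524 for Plet1, chr7:140093146-140093395 for Prap1, chr3:69859895-69860144 for Sptssb and chr15:77476797-77477046 for Apol10a.
Plet1: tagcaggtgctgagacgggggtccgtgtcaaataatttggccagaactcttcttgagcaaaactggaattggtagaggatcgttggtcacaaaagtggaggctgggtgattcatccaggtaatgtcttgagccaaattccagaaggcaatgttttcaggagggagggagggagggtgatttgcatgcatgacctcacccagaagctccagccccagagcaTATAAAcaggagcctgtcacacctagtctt
Prap1: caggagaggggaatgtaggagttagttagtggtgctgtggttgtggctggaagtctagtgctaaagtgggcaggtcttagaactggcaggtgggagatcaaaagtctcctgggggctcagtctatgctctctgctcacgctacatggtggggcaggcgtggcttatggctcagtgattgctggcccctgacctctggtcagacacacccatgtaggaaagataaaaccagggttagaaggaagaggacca
Sptssb: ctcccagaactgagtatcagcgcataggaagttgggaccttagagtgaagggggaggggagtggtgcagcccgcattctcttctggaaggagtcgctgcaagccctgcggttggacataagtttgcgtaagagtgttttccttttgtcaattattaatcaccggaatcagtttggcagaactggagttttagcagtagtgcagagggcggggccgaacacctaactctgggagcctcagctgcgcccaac
Apol10a: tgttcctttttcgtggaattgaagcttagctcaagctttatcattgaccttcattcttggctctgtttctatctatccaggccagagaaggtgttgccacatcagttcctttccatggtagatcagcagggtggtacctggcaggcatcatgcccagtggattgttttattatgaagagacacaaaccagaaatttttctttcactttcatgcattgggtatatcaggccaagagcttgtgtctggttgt

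The window of Plet1 held TATAAA at positions -30 to -25 from the start. The other 3 windows did not hold these exact letters on either strand, and variants of a TATA box were not searched. Among 32851 windows of the same length in the RefSeq table, 12.4% held these letters. A further 4 motifs of factors known in the gut were searched as exact letters on both strands and had no match in any of the 4 windows. Variants of the letters were not searched, so the absence of a site does not follow. The letters TTTATGG, bound by CDX factors, were present in 2.43% of all windows. CCAATAAA, bound by posterior HOX factors, was present in 1.02%, and CAAAGTCCA, bound by HNF4, in 0.384%. The GATA factor motif AGATAAG was present in 2.74%, and the Prap1 window held AGATAAA, which differs from it only in the last letter. The GC content was 50.0% for Plet1, 53.6% for Prap1, 53.2% for Sptssb and 43.2% for Apol10a, against a median of 52.4% over all windows (quartiles 45.2% and 61.2%). The Sptssb window held 9 CpG dinucleotides, and those of Plet1, Prap1 and Apol10a held 3, 2 and 1, against a median of 6.

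In males, Plet1 had 74.9, 37.1 and 0.387 FPKM in the proximal, middle and distal colon. In females it had 82.0, 13.4 and 0 FPKM. The sexes agreed closely in the proximal colon and diverged in the middle colon. In the male libraries the level dropped 2.02-fold from proximal to middle colon and then 96.0-fold from middle to distal colon. In the female libraries it dropped 6.11-fold to the middle colon and was listed at 0 in the distal colon, so no fold is given for the last step. By region, Plet1 averaged 78.4 ± 5.07, 25.3 ± 16.7 and 0.193 ± 0.273 FPKM (SD, n = 2).

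The Prap1 level along the male colon was 145, 6.29 and 0.605 FPKM. Along the female colon it was 35.1, 1.69 and 0 FPKM. The level had thus fallen already in the middle colon of both sexes. The drop from proximal to middle colon was 23.0-fold in males and 20.8-fold in females, and that from middle to distal colon was 10.4-fold in males. The male levels exceeded the female ones 4.12-fold in the proximal and 3.73-fold in the middle colon. The regional means of Prap1 were 89.9 ± 77.5, 3.99 ± 3.25 and 0.303 ± 0.428 FPKM (SD, n = 2), with the proximal spread set by the difference between the sexes.

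For Sptssb, the male libraries gave 125, 62.0 and 2.99 FPKM from proximal to distal. The female libraries gave 81.0, 9.98 and 0 FPKM. The male middle colon thus lay closer to the female proximal colon than to the female middle colon. In males the level dropped 2.02-fold to the middle and 20.8-fold from middle to distal colon, and in females it dropped 8.11-fold to the middle colon and was then listed at 0. The regional means of Sptssb were 103 ± 31.1, 36.0 ± 36.8 and 1.49 ± 2.11 FPKM (SD, n = 2). The male middle level was 6.22-fold the female one, the largest gap between the sexes among the 4 genes in that region.

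Apol10a was the most abundant of the 4 genes in every library. From proximal to distal, males had 192, 96.9 and 4.53 FPKM. Females had 199, 39.0 and 0.676 FPKM. It was the only one of the 4 listed above 0 in the female distal colon. The drop to the middle colon was 1.98-fold in males and 5.10-fold in females, and the drop from middle to distal colon 21.4-fold and 57.7-fold. Over the whole length the level dropped 42.3-fold in males and 294-fold in females, and its regional means were 195 ± 4.72, 67.9 ± 41.0 and 2.60 ± 2.73 FPKM (SD, n = 2).

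**Figure D1:**
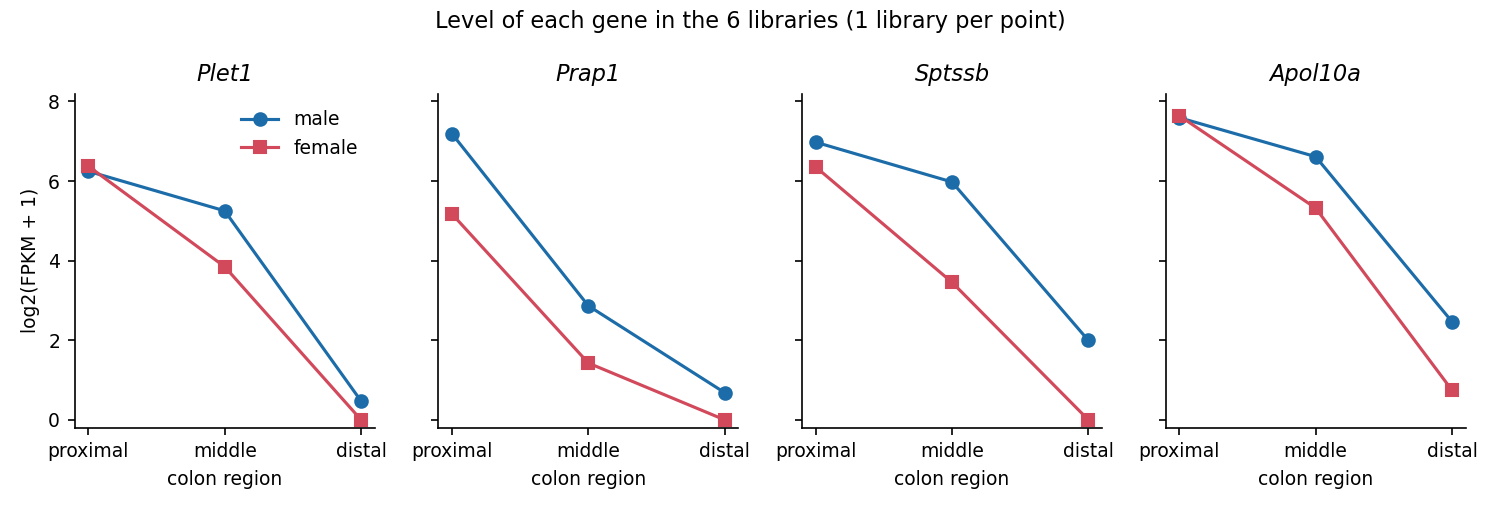
Level of Plet1, Prap1, Sptssb and Apol10a as log2(FPKM + 1) against colon region, with 1 point per library, circles for males and squares for females. Prap1 drops most steeply from proximal to middle colon, whereas the other 3 genes drop most steeply from middle to distal colon in both sexes.

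In the proximal colon Apol10a stood above the other 3 genes in both sexes, while Sptssb, Prap1 and Plet1 did not differ beyond the spread of their libraries: Prap1 ranked second in males and last in females. In the middle colon Prap1 was the lowest of the 4 in both sexes. The 4 genes together amounted to 537, 202 and 8.51 FPKM along the male colon and to 397, 64.1 and 0.676 FPKM along the female colon. In bulk libraries such as these, fewer cells of a type and less RNA per cell cannot be told apart.

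The share of the proximal level left in the middle colon separated Prap1 from the others. In the male libraries 49.5% of the Plet1 level, 49.6% of the Sptssb level and 50.5% of the Apol10a level were left, against 4.34% of the Prap1 level. In the female libraries these shares were 16.4%, 12.3%, 19.6% and 4.80%. The share left of Plet1, Sptssb and Apol10a was thus larger in males, whereas the share left of Prap1 was nearly the same in both sexes.

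**Figure D2:**
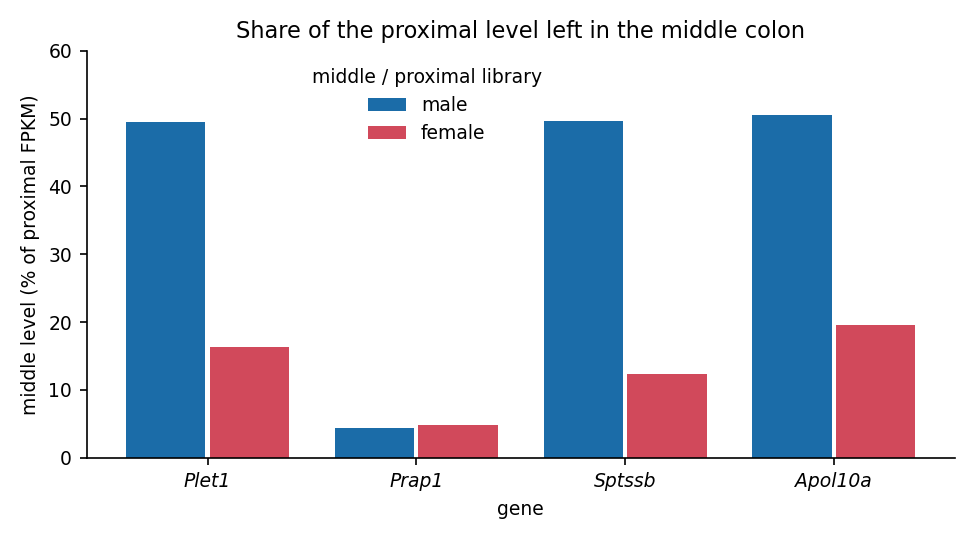
Level in the middle colon as a percentage of the level in the proximal colon of the same sex, on a linear axis, with 1 bar per sex (1 library over 1 library, so no error bar). The male bars of Plet1, Sptssb and Apol10a lie between 49.5% and 50.5%, their female bars between 12.3% and 19.6%, and both bars of Prap1 under 5%.

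On the scale of log2(FPKM + 1), which understates changes near or under 1 FPKM, the mean change from proximal to distal colon over both sexes was -6.07 for Plet1, -6.01 for Apol10a, -5.84 for Prap1 and -5.67 for Sptssb. Among 11815 genes with at least 1 FPKM in at least 2 libraries these falls ranked 6, 8, 10 and 11, and the next gene in that order, H2-T3, changed by -5.41. The other genes among the first 11 were Reg3b, Reg3g, Cyp4b1, Isx, Osr2, Slc51a and Retnlb. All 4 genes entered that set through their proximal and middle libraries. As background, limma at an adjusted p under 0.05 called 7.64% of the 11815 genes lower and 6.47% higher in distal than in proximal colon, and nothing is read from this for the 4 genes.

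The first step, from proximal to middle colon, changed Prap1 by -4.04 on the log2 scale, which ranked 8 among the falls of all genes at that step. It changed Plet1 by -1.76, Sptssb by -1.95 and Apol10a by -1.65. At the second step, from middle to distal colon, Prap1 changed least, by -1.80, and Sptssb by -3.72, Plet1 by -4.31 and Apol10a by -4.36, the last 2 ranking 2 and 1 among all genes. The order of these 3 depends on the constant added to values near 0: with 0.1 the second step was -6.67 for Plet1, -5.49 for Sptssb and -5.02 for Apol10a, and Prap1 was again the least at -3.67. Leaving out 1 library moved the first step of these 3 genes by over 1.5 times in some cases, to -1.14 for Plet1 without the female middle library, and to -1.13 for Sptssb and -0.87 for Apol10a without the female proximal library. For the first step limma called 1.25% of all genes lower and 1.19% higher, and for the second 0.389% lower and 0.11% higher. Both steps share libraries with the comparison that chose the genes, and they share the middle libraries with each other.

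Expressed as the part of the log2 fall completed by the middle colon, Prap1 had lost 66.4% in males and 72.5% in females. Plet1 had lost 17.2% and 39.6%, Sptssb 20.1% and 45.6%, and Apol10a 19.1% and 33.6%. The part was larger in the female than in the male libraries for all 4 genes. With 0.1 in place of 1 added to each FPKM value, the parts became 58.6% and 50.8% for Prap1, 13.9% and 26.9% for Plet1, 18.9% and 31.1% for Sptssb, and 18.3% and 29.3% for Apol10a, so that Prap1 had the larger part in males on that scale. Prap1 stood above the other 3 genes in both sexes with either constant.

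The same quantity was set beside that of 117 other genes that fell by at least 2 on the log2 scale in each sex. Their median part completed by the middle colon was 49.1% in males (quartiles 31.1% and 65.2%) and 62.9% in females (quartiles 48.2% and 78.5%). The parts of the 117 genes were computed only with the larger constant and not with 0.1. Prap1 lay above the upper quartile in males, with 89 of the 117 genes below it, and above the median in females, with 80 below it. Whether Prap1 keeps this position with 0.1, where its own parts were 58.6% in males and 50.8% in females, was not tested. Plet1, Sptssb and Apol10a lay below the lower quartile in both sexes: in males 14, 20 and 17 of the 117 genes had a smaller part, and in females 18, 26 and 9. A larger part in females than in males, as seen for the 4 genes, was also found for 97 of the 117 other genes (82.9%).

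**Figure D3:**
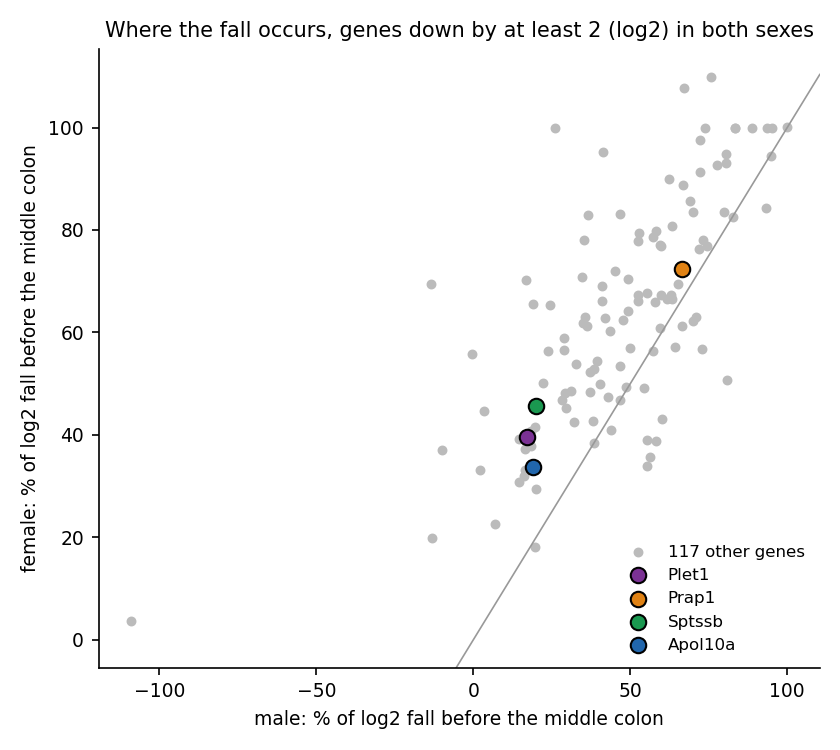
Percentage of the log2(FPKM + 1) fall from proximal to distal colon that was completed by the middle colon, male libraries on the horizontal and female libraries on the vertical axis, for the 4 genes (coloured) and 117 other genes (grey) that fell by at least 2 in each sex. Points above the diagonal line, which marks equal percentages, completed more of the fall by the middle colon in the female libraries; a negative percentage means a level in the middle colon above that in the proximal colon.

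The sexes were compared over the 3 regions with limma, with region as a term of the model. In the labels the 3 male libraries are replicate 1 and the 3 female libraries are replicate 2. A difference between the sexes can therefore not be told apart from one between replicates, mice or preparations. If 1 mouse gave all 3 regions of a sex, the test compares 1 animal per sex. For Prap1 and Sptssb the female library was the lower one in all 3 regions, and for Plet1 and Apol10a it was lower in the middle and distal colon and slightly higher in the proximal colon. The female minus male difference was -1.71 (SE 0.35) for Sptssb, -1.38 (SE 0.25) for Prap1, -0.99 (SE 0.33) for Apol10a and -0.58 (SE 0.28) for Plet1 on the log2 scale. None of the 4 passed the limma threshold (adjusted p = 0.35, 0.33, 0.45 and 0.52), where 5 of the 11815 genes did (0.0423%). Before adjustment, 3 of the 4 were under 0.05 in the limma fit across all genes and lower in females, against 10.6% of all genes in either direction. The unadjusted values of that fit were 0.0036 for Sptssb, 0.0020 for Prap1, 0.027 for Apol10a and 0.089 for Plet1. Without the male proximal library, Sptssb (-2.26, limma adjusted p = 0.0071) and Apol10a (-1.51, limma adjusted p = 0.022) passed the threshold. Leaving out the female proximal library gives the same estimates, from the same 4 middle and distal libraries (limma adjusted p = 0.0059 and 0.020). Without either middle library the differences were -1.31 for Sptssb and -0.84 for Apol10a (limma adjusted p = 0.93 without the male and 0.92 without the female one), and that of Plet1 was -0.17. Whether a regional fall differs between the sexes could not be tested with 1 library per region and sex.

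For each of the 4 genes, the 4 other genes of most similar profile were found among 8652 genes with a mean of at least 5 FPKM. The measure was the root mean square difference between log2 profiles over the 6 libraries after the mean of each gene was subtracted, with Pearson's r beside it. The libraries are shared by all genes and r is a description here. Prap1 was nearest to Cyp4b1, a cytochrome P450 of a fatty acid hydroxylase family (difference 0.34, r = 0.997), Slc51a, a subunit of the basolateral bile acid exporter (0.37, r = 0.991), the defensin gene Defb37 (0.37, r = 0.993) and the homeobox gene Hoxb6 (0.46, r = 0.987). Plet1 was nearest to Retnlb, a secreted antibacterial protein of goblet cells (0.42, r = 0.987), the intestinal homeobox gene Isx (0.48, r = 0.983), H2-T3 (0.57, r = 0.982) and the mucin glycosyltransferase gene B3gnt6 (0.64, r = 0.993).

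Isx was also the nearest gene to Sptssb (difference 0.34, r = 0.993) and to Apol10a (0.46, r = 0.985). For both it was followed by Fabp2, the intestinal fatty acid binding protein (0.54, r = 0.995 for Sptssb and 0.62, r = 0.994 for Apol10a), and by B4galnt1, a ganglioside synthase (0.66, r = 0.988 and 0.69, r = 0.994). The fourth was Tmigd1 for Sptssb (0.71, r = 0.988) and Retnlb for Apol10a (0.69, r = 0.965). Among the 4 genes themselves, Plet1 and Apol10a were the closest pair (0.37, r = 0.990), followed by Sptssb and Apol10a (0.49, r = 0.982) and Plet1 and Sptssb (0.64, r = 0.969). Prap1 was 1.14 to 1.34 away from each of the other 3. These lists of neighbours depended on single libraries: between 1 and 4 of the 4 names stayed when a library was left out.

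**Figure D4:**
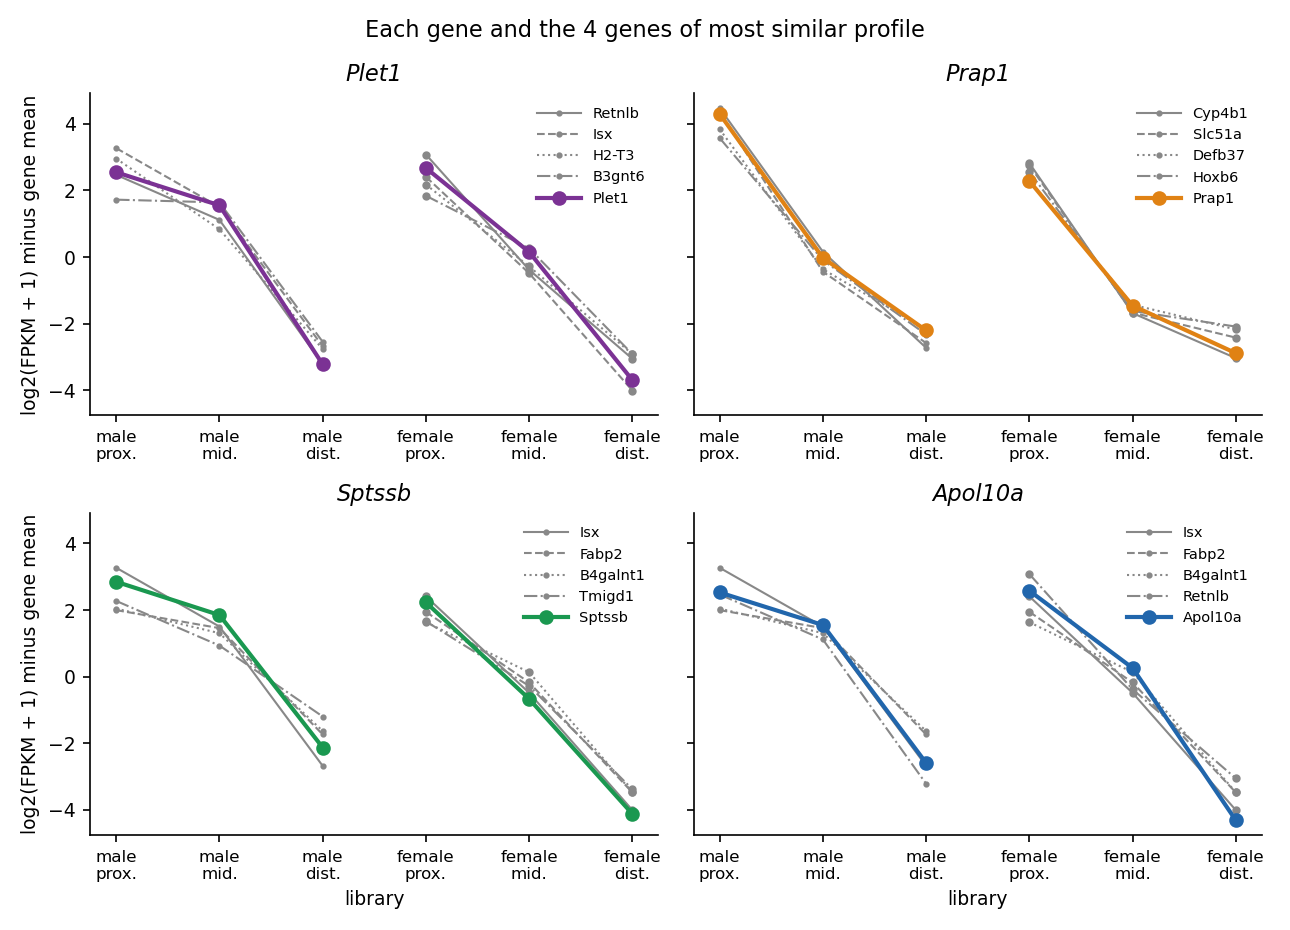
Centred profile, log2(FPKM + 1) minus the mean of the gene, of each of the 4 genes (coloured, thick) and of the 4 genes most similar to it (grey) across the 6 libraries. The Prap1 panel bends at the middle colon in both sexes, and the lines of Plet1, Sptssb and Apol10a descend more from middle to distal than from proximal to middle colon in both sexes.

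The genes next to the 4 on the chromosome were tested between distal and proximal colon. Of the 16 nearest protein-coding genes that passed the filter, the closest pair on each side of each gene, 3 were lower in distal than in proximal colon at a limma adjusted p under 0.05 and 13 did not pass, where 7.64% of all genes were called lower. Prap1 overlaps Fuom on the opposite strand by 431 bases. Fuom had 16.9, 14.2 and 13.1 FPKM along the male and 13.3, 17.8 and 13.3 FPKM along the female colon, while Prap1 went down to 0.605 and 0 FPKM. Whether strand was used in counting is not given in the sources used here, so reads from the overlap may have been assigned to either gene.

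For Plet1 the nearest such genes were Pts and Bco2, 16.1 and 27.6 kb away, which changed by -0.02 and 0.33 (limma adjusted p = 0.93 and 0.43), and Zw10 and Usp28, 1420 and 1450 kb away on the other side. For Sptssb, Nmd3 at 63.2 kb did not pass (-0.27, limma adjusted p = 0.30), nor did Ppm1l. Sis (-2.06, adjusted p = 0.016 by limma), the sucrase-isomaltase gene, and Bche (-1.11, adjusted p = 0.0099), a cholinesterase gene, were called lower but lie 3030 and 3780 kb from Sptssb. Without the male distal library both lost the limma call (adjusted p = 0.12 and 0.061), as they did without the female distal one (0.050 and 0.060). Beside Apol10a, its relative Apol7a at 77.9 kb was lower in distal colon, and Apol9a, Apol9b and Myh9 did not pass.

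Of 12 other apolipoprotein L genes, 4 passed the filter, of which 2 were lower in distal colon and 2 did not pass the test, with a median difference of -1.06 against 0.01 over all genes. Apol7a was at 11.2, 8.91 and 3.07 FPKM along the male and at 8.92, 3.63 and 1.49 FPKM along the female colon (distal minus proximal -1.79, SE 0.21, limma adjusted p = 0.0076). Apol6 changed by -1.28 (SE 0.25, limma adjusted p = 0.027). The nearest relative by name, Apol10b, was at most 0.420 FPKM in any library. In the female distal library Apol10a itself, at 0.676 FPKM, was below Apol6 (2.06 FPKM), Apol7a (1.49 FPKM) and Apol9a (0.712 FPKM). Without the male distal library neither Apol7a (limma adjusted p = 0.056) nor Apol6 was called, and Apol6 was not called either without the female distal library or without either middle library. Family members of similar sequence can exchange reads, and their levels are uncertain to that extent.

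Serine palmitoyltransferase is built from large subunits and a small subunit. Sptssa, the gene of the alternative small subunit, was at 49.7, 35.1 and 36.5 FPKM along the male and at 40.1, 38.8 and 34.2 FPKM along the female colon (-0.33, limma adjusted p = 0.17). Sptlc1 and Sptlc2, the large subunit genes, differed by 0.19 and 0.02 between distal and proximal colon (limma adjusted p = 0.32 and 0.93), and Sptlc3 was listed at 0 in all 6 libraries. In the proximal colon Sptssb (103 ± 31.1 FPKM, SD, n = 2) was above Sptssa (44.9 ± 6.79 FPKM), and in the distal colon Sptssa (35.4 ± 1.56 FPKM) was above Sptssb (1.49 ± 2.11 FPKM).

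Of 39 sphingolipid genes tested besides Sptssb, 5 were lower and 5 higher in distal colon and 29 did not pass, with a median of 0.03. Degs1, which makes the double bond of ceramide, changed by -1.96 (limma adjusted p = 0.0041), the fatty acid 2-hydroxylase gene Fa2h by -0.86 (adjusted p = 0.0067) and the sphingosine-1-phosphate phosphatase gene Sgpp1 by -0.79 (adjusted p = 0.020). The ceramide synthase genes Cers5 and Cers4 rose by 1.01 and 0.81 (limma adjusted p = 0.0058 and 0.019). Without the male distal library, Fa2h, Sgpp1, Cers5 and Cers4 no longer passed (limma adjusted p = 0.081, 0.18, 0.062 and 0.14). Without the female distal library neither did Fa2h (0.055) and Sgpp1 (0.077), and Sgpp1 also failed without the male proximal one (0.069). Without the male distal library 1 of the 39 genes was lower and 0 higher, without the female distal one 1 was lower and 2 higher, without the male proximal one 3 were lower, and without either middle library 3 were higher. With sex left out of the model, Fa2h was not called (limma adjusted p = 0.12) and 2 genes were lower, and without the filter on low values 2 were lower and 3 higher, with Sgpp1 not called (0.056). Without the variance trend 3 were higher.

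Among 19 tested genes of lipoprotein assembly and fat absorption, the setting of Prap1's partner protein, 6 were lower and 2 higher in distal colon and 11 did not pass, with a median of -0.20. Mttp, which encodes that partner, was near 1 FPKM throughout (0.769 to 1.34 FPKM) and did not pass the filter, and the gene of the lipoprotein Apoa4 was listed at 0 in all 6 libraries. Apob, which encodes the structural protein of chylomicrons, changed by -0.85 (limma adjusted p = 0.021). Fabp2 was at 834, 573 and 61.6 FPKM along the male and at 805, 184 and 17.7 FPKM along the female colon, a change of -4.58 (SE 0.42, limma adjusted p = 0.0041). The fatty acid transporter gene Slc27a4 changed by -1.70 (adjusted p = 0.0066) and the triglyceride synthesis gene Dgat2 by -0.94 (adjusted p = 0.0074), while Apoc2 rose by 0.88 (adjusted p = 0.034), all by limma. The calls of Apob, Dgat2 and Apoc2 were lost without the male distal library (limma adjusted p = 0.056, 0.076 and 0.071). Those of Apob and Apoc2 were also lost without the female proximal (0.054 and 0.086) or female distal library (0.11 and 0.18), and that of Apoc2 without either middle library (0.071 and 0.072). With sex left out of the model Dgat2 and Apob were not called (0.22 and 0.13), and without the filter on low values Apob and Apoc2 were not (0.052 and 0.083). In all, 2 of the 19 genes were lower and 0 higher without the male distal library, and 0 were higher without the female proximal or female distal one or without the filter. With a pseudocount of 0.1 or a filter at 5 FPKM, 1 was higher.

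Of 17 tested genes for other GPI-anchored proteins of epithelial surfaces, which share the membrane anchor of Plet1, 3 were lower and 3 higher in distal colon and 11 did not pass, with a median of 0.24. Alpi, the intestinal alkaline phosphatase gene, was at 24.0, 16.0 and 1.55 FPKM along the male and at 26.1, 3.41 and 1.04 FPKM along the female colon (-3.52, SE 0.48, limma adjusted p = 0.011). Its level in the middle colon was also higher in the male than in the female library, as for Plet1. The urokinase receptor gene Plaur changed by -1.95 (limma adjusted p = 0.0023) and the serine protease gene Prss30 by -1.08 (adjusted p = 0.0052), whereas the glypican gene Gpc4 rose by 1.17 (adjusted p = 0.014) and Ly6e by 0.88 (adjusted p = 0.040). Without the male distal library Alpi, Gpc4 and Ly6e were no longer called (limma adjusted p = 0.076, 0.11 and 0.26). Gpc4 was not called without the female distal library either (0.052), nor Ly6e without the male proximal (0.089) or either middle library (0.076 and 0.077). Ly6e was also not called with sex left out (0.075), without the variance trend (0.061) or without the filter (0.087). The number of higher genes was 0 without the male distal library, and 1 without the female distal library or without the filter.

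Over these 79 related genes, limma called 10 higher and 16 lower in distal than in proximal colon, where it called 6.47% and 7.64% of all genes. From proximal to middle colon it called 1 higher (Apoc2) and 2 lower (Slc27a4 and Plaur). It called 0 from middle to distal colon, with 28 at an unadjusted p under 0.05 (12.7% of all genes), and 0 between the sexes, with 13 at an unadjusted p under 0.05 (10.6% of all genes).

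**Figure D5:**
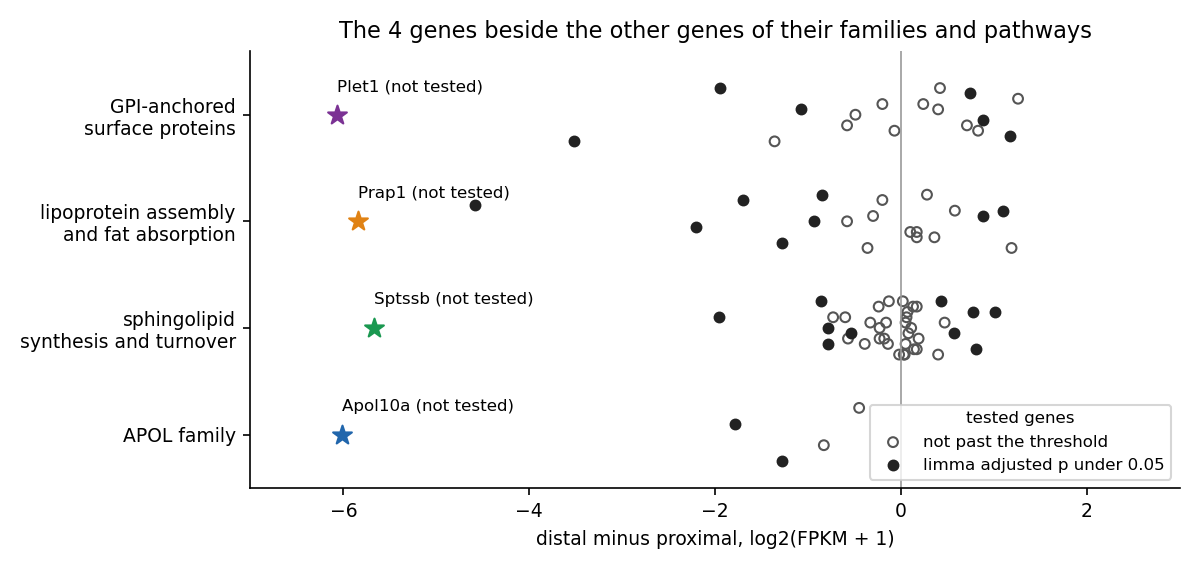
Difference between distal and proximal colon in log2(FPKM + 1) for each tested gene of the 4 lists (circles, filled where the limma adjusted p was under 0.05) and for the listed gene they relate to (star, not tested). The stars, at -6.07 to -5.67, mark genes picked for this difference, and the lowest circle is Fabp2 at -4.58.

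Total FPKM, a unit already scaled to library size, was 546269 to 612818 in the 6 libraries. The estimated depth was 7.83 to 7.94 M fragments in the male and 8.93 to 9.94 M in the female libraries. At these depths the distal values of Plet1 and Prap1 in males correspond to about 5 and 2 fragments. Levels under 1 FPKM are therefore imprecise, and a value listed at 0 can be a failed estimate. Epithelial marker genes summed to 5020 to 6300 FPKM in the 6 libraries, and fibroblast and muscle markers to at most 0.974 FPKM. The epithelial sum was mostly Krt8 (3320 to 4010 FPKM), and none of the 5 epithelial markers was called between distal and proximal colon. Among them Krt20 was at 694, 803 and 388 FPKM along the male and at 851, 355 and 247 FPKM along the female colon (-1.31, limma adjusted p = 0.062). Absorptive colonocyte markers summed to 27600, 13800 and 16500 FPKM along the male and to 16400, 15500 and 18200 FPKM along the female colon. Of the 5, Car1 was called lower in distal colon (-2.16, limma adjusted p = 0.039). The other 4, Car4, Slc26a3, Aqp8 and Lypd8, were higher there without passing. Small intestinal enterocyte markers summed to 52.0, 23.0 and 16.0 FPKM along the male and to 44.5, 16.9 and 23.5 FPKM along the female colon. Of the 6 such markers listed, Alpi and Sis were called lower in distal colon, Apoa4 was at 0 in every library and Lct at most 0.0849 FPKM. Fabp6, which made up most of the distal sums (10.7 and 18.6 FPKM), and Anpep did not pass (-0.27 and 0.76, limma adjusted p = 0.63 and 0.16).

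T cell and intraepithelial lymphocyte markers summed to 38.2, 4.48 and 3.29 FPKM along the male and to 14.9, 7.35 and 3.50 FPKM along the female colon. They were highest in the proximal colon, and there higher in the male library, as were Prap1 and Sptssb but not Plet1 and Apol10a. Of the 6 tested, 3 were called lower in distal colon. Goblet cell markers summed to 8470 and 12800 FPKM in the male and female middle libraries, against 3410 to 7250 FPKM in the other 4, and 4 of 5 were called higher in distal than in proximal colon. The fifth, the mucin gene Muc2, was called lower (1490 ± 166 FPKM proximal and 299 ± 34.0 FPKM distal, SD, n = 2, log2 difference -2.31, limma adjusted p = 0.0049). Paneth cell markers summed to 211 FPKM in the female middle library, mostly Ang4, and to 4.43 to 59.7 FPKM elsewhere, with Defa24 at 0 in all 6. The part of these cell types in the levels of the 4 genes was not tested.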

How the data were processed

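The authors deposited FPKM values per gene for each library, and no other column of values was used. Per the submitters' processing notes, Cuffdiff 2.2.1, TopHat2 2.1.1, Bowtie2 2.2.8 and SAMtools 0.1.18 were used with mm10. The sources used here do not give their settings, the annotation or whether counting used strand. Per the labels' protocols, the library kit keeps strand.

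FPKM values are not counts, so log2(FPKM + 1) was fitted with limma 3.58.1 in R 4.3.3, with region and sex as terms and variances moderated along the mean, over 11815 genes with at least 1 FPKM in at least 2 of the 6 libraries. The fit has 2 residual and 3.49 prior degrees of freedom. Adjusted p-values follow Benjamini and Hochberg over these genes, at 0.05. The fit was run on data simulated with noise independent between genes and between libraries. Only the mean estimates were required to lie close to the sizes put in, and the rate of false calls is not reported here. That check does not cover mice or preparations shared by several libraries. Depth was estimated from the spacing of low values, assuming fragments of 200 bases, and is approximate.

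The 4 genes and the gene lists were chosen with earlier results of these data known. Named genes are the 4, the 4 of most similar profile to each, the nearest 2 on each side, and up to 5 per list with the largest distal minus proximal difference and a mean of at least 5 FPKM, those past the threshold first, plus direct partners. Apol6 was named after its values were seen, and so were the genes named as cell type markers, apart from Alpi. The comparison with 117 other falling genes was also set up after the data were seen. Coordinates come from GENCODE M21, matched by symbol for 23268 of 24346 entries, and promoter windows from RefSeq GRCm38.p6. The alternatives left out each library in turn, the filter, the variance trend, or region or sex as a term, or used a pseudocount of 0.1, a filter at 5 FPKM, median-ratio scaling or quantile normalization. Figures were drawn with matplotlib 3.10.9 in Python 3.11.15.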

Additional observations from a re-analysis of the deposited data

How the results depend on the processing

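Every difference between regions of Plet1, Prap1, Sptssb and Apol10a stayed negative in the 108 values computed under the alternatives. These genes were picked for their fall in the same libraries, so the signs of their regional differences are a description and not a check. Every female minus male difference also stayed negative. With a pseudocount of 0.1, the distal minus proximal difference became -8.47 for Plet1, -8.07 for Prap1 and -7.50 for Sptssb, and the distal minus middle difference -6.67 for Plet1, -3.67 for Prap1, -5.49 for Sptssb and -5.02 for Apol10a; a smaller constant enlarges differences against values near 0. Leaving out each library in turn gave -6.61 to -5.54 for Plet1 from proximal to distal colon, -4.51 to -3.56 for Prap1 from proximal to middle colon, and -4.33 to -3.11 for Sptssb and -4.91 to -3.81 for Apol10a from middle to distal colon. For the first step, proximal to middle colon, the ranges were -2.38 to -1.14 for Plet1, -2.77 to -1.13 for Sptssb and -2.43 to -0.87 for Apol10a. Between the sexes the ranges were -2.26 to -1.31 for Sptssb and -1.51 to -0.62 for Apol10a, and their limma adjusted p ranged from 0.0059 to 0.98 and from 0.020 to 0.98 over all alternatives.

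The number of genes called between middle and proximal colon, 289, became 4 without the filter, 187 without the variance trend and 24 with sex left out of the model (no replicate block), and that between distal and middle colon, 59, became 2, 29 and 17. Leaving out each library in turn gave 340 to 1583 calls between distal and proximal colon (main 1668), 0 to 806 between middle and proximal colon, 0 to 406 between distal and middle colon and 2 to 25 between the sexes (main 5). The lowest counts came without the male distal library (340, and 0 from middle to distal colon), the female middle library (0 from proximal to middle colon) and the male middle library (2 between the sexes). In these fits the lone library of a region is assumed to vary like the others, and the cause was not tested. With 0.1 as pseudocount, 2 of the 4 genes nearest to Prap1 and 1 of the 4 nearest to Sptssb and to Apol10a stayed in those lists.

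The share of other falling genes with more of the fall before the middle colon in females was 78.0% of 168 genes when the mean fall over the sexes had to reach 2. This rule, and that of 2 in each sex, were written after the data were seen.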
